A study of Homo sapiens with 6 samples.

Results

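Imprinted genes are expressed mainly or wholly from the copy inherited from 1 parent. The choice is carried by DNA methylation set in the egg or sperm at control regions, which act on clusters of neighbouring genes, and it is kept through cell division by factors that include ZFP57, TRIM28 and DNMT1. Many imprinted genes act on growth, the placenta or the brain, and their marks are known to be lost or gained in cultured pluripotent stem cells. Here 36 protein-coding genes known for imprinting were followed among the 19977 genes counted. They were chosen by symbol, without a cut on level or change, but with earlier results of these data known. Of these, 20 are known mainly for expression from the paternal copy, 11 from the maternal copy and 5 for imprinting that depends on the transcript or tissue. These groups come from general knowledge. The counts did not separate the parental copies, so a level here is the sum over both, and no value below measures imprinting itself.

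The cells were NCRM-1, a human iPSC line of wild type genotype reprogrammed with episomal vectors from CD34+ cells of cord blood, seeded as single cells and grown as floating aggregates in bioreactors with a vertical wheel. RNA of the whole culture was taken after 4 days. There were 3 libraries in Essential 8 medium (E8) to which heparin sodium salt at 0.1 µg/ml and polyethylene glycol at 10 mg/ml had been added, labelled PEG and HS, and 3 libraries in E8 alone (Control), with 50% of the medium replaced on day 2. The question of the comparison was which transcripts the additives changed. The labels read as 1 bioreactor for each medium, so medium and vessel cannot be told apart and p-values measure the spread between samples, which may be technical. The treatment text of the labels describes the additives for all 6 libraries, and the grouping here followed the treatment tag of each library. All libraries came from 1 line, so other donors were not represented.

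The libraries held 26991279 to 36185138 counts. All 8 pluripotency markers of the label's cell type were well counted, with summed levels of 7723 to 7987 CPM (counts scaled to a common library size adjusted for composition) with the additives and 7609 to 7773 CPM in Control. They did not move together. POU5F1, NANOG and L1TD1 were higher (log2 fold changes of 0.23, 0.55 and 0.36) and SOX2, LIN28A and SALL4 lower (-0.59, -0.30 and -0.25). Over all genes tested, 13.1% were called lower. All 12 neuroectoderm markers were tested and 9 were lower in PEG and HS (SOX1, PAX6, LHX5, OLIG3, OTX2, ZIC1, HES5, SIX3 and FEZF2, with log2 fold changes of -0.90 to -2.37). The summed level of the 12 ranged from 42.3 to 47.6 CPM with the additives and from 160.6 to 168.2 CPM in Control. Of 12 trophoblast and amnion markers, 8 were tested and 2 of these were lower (TFAP2A and KRT7), with sums over the list of 5.13 to 5.52 CPM and 14.2 to 14.6 CPM, and the defining marker CGA was at 0 in every library. Of 8 mesoderm markers, 7 were tested and 2 of these were lower, TBX6 (-0.48) and HAND1 (-3.51, from 16 counts in all), while MIXL1 had a log2 fold change of 0.44 and was not called. The mesoderm sums were 5.90 to 6.05 CPM and 6.40 to 7.84 CPM, with MSGN1 at 0, and those of 8 endoderm markers 4.57 to 5.07 CPM and 5.90 to 7.19 CPM. All 4 of these sums outside the pluripotent list were lower with the additives, like the imprinted genes that fell, and their part in those results was not tested. In bulk samples, fewer cells of a type and less RNA per cell cannot be told apart.

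All 36 imprinted genes were found in the counts, and 31 passed the filter of at least 10 counts over the 6 libraries. In PEG and HS, 3 were higher (PEG10, BLCAP and NLRP2) and 8 were lower (DIRAS3, DLK1, CDKN1C, SNRPN, SGCE, GRB10, GNAS and INPP5F), at an adjusted p under 0.05 by the quasi-likelihood test of edgeR, adjusted by Benjamini-Hochberg over all 16505 genes tested. That is 35.5% of the imprinted genes tested, beside 25.3% of all genes, and the difference between these shares was not tested. By direction, 12.2% of all genes were called higher and 13.1% lower, beside 9.68% and 25.8% of the imprinted genes. Where 2 values of a gene follow each other below without a medium, that of PEG and HS comes first. The median log2 fold change of the 31 was -0.06, beside 0.00 over all genes, and the median size of the change was 0.14 beside 0.12. A change of at least 1.5-fold was called in 3 of the 31, all lower (DIRAS3, DLK1 and CDKN1C), and in 4.43% of all genes (3.6% lower and 0.83% higher). Control and treated libraries were fully apart for 14 of the 31, or 45.2%, beside 39.3% of all genes.

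**Figure D1:**
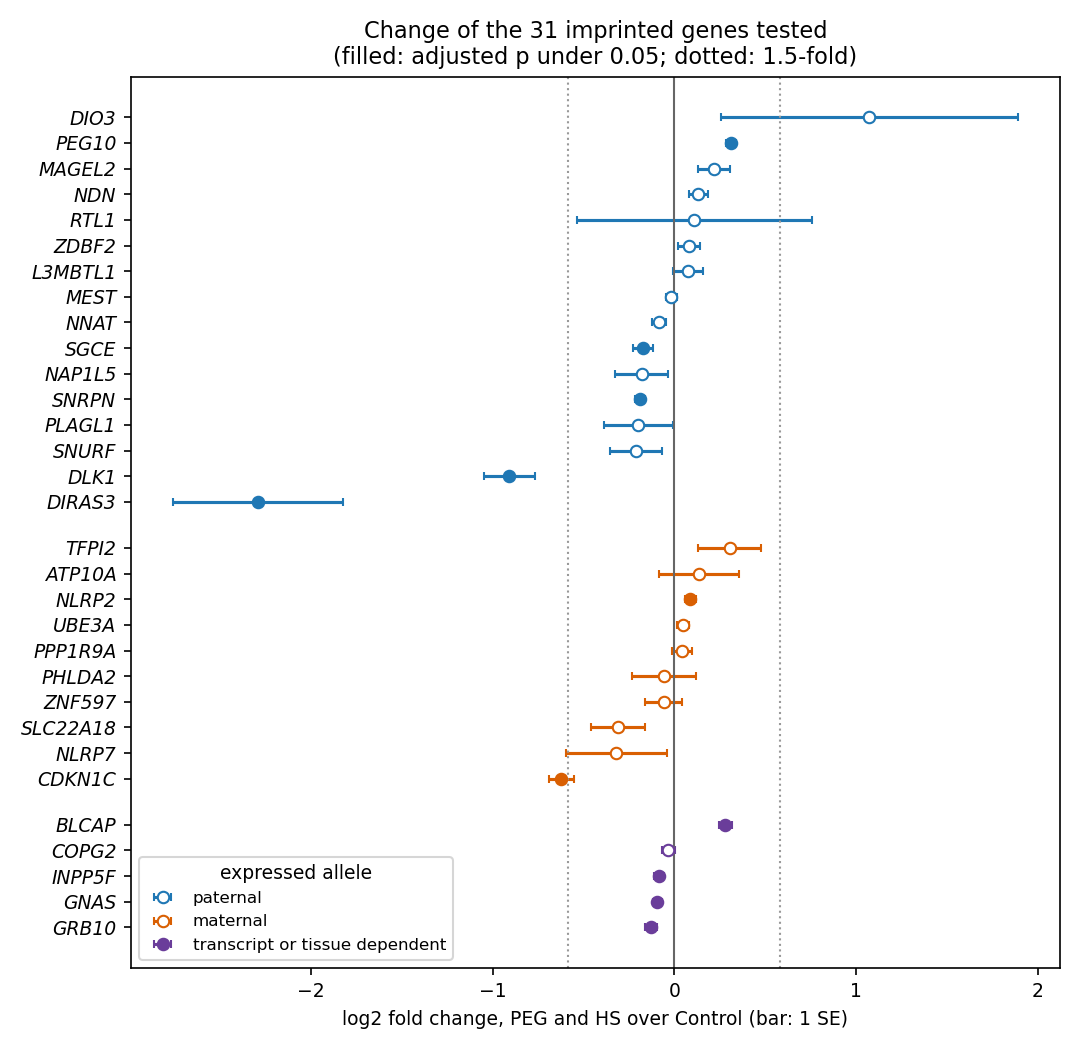
Log2 fold change of PEG and HS over Control (x axis) for the 31 imprinted genes tested, by expressed allele, with bars of 1 SE from edgeR. Filled points were called at an adjusted p under 0.05 and dotted lines mark 1.5-fold. DIRAS3, DLK1 and CDKN1C lie beyond the lower line, and the called increases of PEG10, BLCAP and NLRP2 stay inside 1.5-fold.

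By expressed allele, 1 of the 16 paternal genes tested was higher (6.25%) and 4 were lower (25%), with a median log2 fold change of -0.05. Of the 10 maternal genes tested, 1 was higher (10%) and 1 was lower (10%), with a median of -0.01. Of the 5 genes whose imprinting depends on transcript or tissue, 1 was higher (20%) and 3 were lower (60%), with a median of -0.08. Over all genes tested, 12.2% were higher and 13.1% lower, so the maternal shares were near those of all genes. Each share rests on few genes. The groups were not tested against each other. The largest called falls lay in both parental groups, since DIRAS3 and DLK1 are paternal genes and CDKN1C is a maternal gene.

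Sequences are shown for members whose start is held by the RefSeq promoter windows of GRCh38.p14, which run from 250 bases before to 50 bases after a start. Windows were found for 27 of the 36 genes, not for PEG3, PEG10, DLK1, CDKN1C, PHLDA2, SLC22A18, SGCE, ZIM2 and NNAT. The hexamer TGCCGC, the core of the site that ZFP57 reads when it is methylated, was searched on both strands and is in capitals below, as TGCCGC or as its reverse complement GCGGCA. The window of DIRAS3, the member that fell most, is chr1:68050578-68050877 on the minus strand. The window shared by SNRPN and SNURF is chr15:24954737-24955036 on the plus strand. A window of BLCAP, which rose, is chr20:37527683-37527982 on the minus strand. A window of MEST, a well counted paternal gene that was not called, is chr7:130491835-130492134 on the plus strand. SNRPN, BLCAP and MEST have further windows that are not shown, and for SNRPN and MEST the window shown held the most matches.
DIRAS3: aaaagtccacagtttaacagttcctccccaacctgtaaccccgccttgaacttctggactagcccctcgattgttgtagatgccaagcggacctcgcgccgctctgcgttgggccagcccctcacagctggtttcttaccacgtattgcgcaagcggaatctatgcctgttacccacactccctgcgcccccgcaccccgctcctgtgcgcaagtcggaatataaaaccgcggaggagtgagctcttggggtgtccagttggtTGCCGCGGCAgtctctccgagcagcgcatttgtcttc
SNRPN and SNURF: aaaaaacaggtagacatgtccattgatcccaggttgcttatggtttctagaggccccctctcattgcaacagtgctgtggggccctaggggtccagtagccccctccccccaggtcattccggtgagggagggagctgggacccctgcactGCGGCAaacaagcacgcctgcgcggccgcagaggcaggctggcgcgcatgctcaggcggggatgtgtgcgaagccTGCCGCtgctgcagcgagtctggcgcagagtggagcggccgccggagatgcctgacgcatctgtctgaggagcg
BLCAP: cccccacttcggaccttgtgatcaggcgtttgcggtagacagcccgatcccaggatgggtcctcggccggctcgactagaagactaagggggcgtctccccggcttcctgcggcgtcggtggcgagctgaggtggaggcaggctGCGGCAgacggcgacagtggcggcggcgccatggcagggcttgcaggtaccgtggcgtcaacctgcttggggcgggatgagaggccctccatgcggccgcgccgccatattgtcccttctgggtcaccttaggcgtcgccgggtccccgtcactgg
MEST: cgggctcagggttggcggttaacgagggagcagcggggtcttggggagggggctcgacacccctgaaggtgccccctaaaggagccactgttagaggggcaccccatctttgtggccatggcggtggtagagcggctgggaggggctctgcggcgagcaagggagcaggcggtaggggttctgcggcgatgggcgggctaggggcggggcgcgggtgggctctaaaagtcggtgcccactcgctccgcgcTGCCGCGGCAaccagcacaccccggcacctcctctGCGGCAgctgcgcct

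DIRAS3 and the shared SNRPN and SNURF window held 2 matches each, on opposite strands, and in DIRAS3 the matches overlap. The window shown held 3 matches for MEST, whose other windows held 0 to 2, and 1 for BLCAP. Over all windows of the members, 19 of 55 (34.5%) held the hexamer, beside 16.7% of all 34943 windows of the same length. The share was 44.4% in paternal genes, 18.2% in maternal genes and 29.4% in those dependent on transcript or tissue. The members' windows were also richer in CpG, with a median of 19 CpG beside 14 over all windows, and windows of 1 gene can overlap, so the shares are a description. The hexamer did not separate genes that moved from those that did not. It was in a window of DIRAS3, SNRPN, BLCAP, GNAS and GRB10, which were called, and of MEST, NAP1L5 and NDN, among others not called. No window held it for INPP5F and NLRP2, which were called, or for COPG2 and UBE3A, among others not called.

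DIRAS3, a small GTPase of the RAS family known as a growth suppressor, lies at chr1:68045886-68051717 on the minus strand, with the start region shown above. Its counts were 3, 2 and 5 in the PEG and HS libraries and 14, 18 and 18 in the Control libraries. As levels, these were 0.0890, 0.0708 and 0.148 CPM against 0.519, 0.554 and 0.499 CPM. Every Control library was above every PEG and HS library, but all 6 were low. The log2 fold change was -2.29 ± 0.47 (SE), a 4.89-fold lower level (edgeR, adjusted p = 0.00196). DIRAS3 was also the lone imprinted gene that passed a test against a change of 1.5-fold (edgeR, adjusted p = 0.0377). DESeq2, the tool of the study, gave it no adjusted p, and a filter of at least 1 CPM in 3 libraries left it untested, so the call was not made under either. No 31-base word of its transcripts occurs in those of another gene. The long noncoding RNA gene GNG12-AS1 overlaps it on the opposite strand. The strand setting of the counting was not given in the sources used here, so reads of these genes may not be fully apart. The PEG and HS level rested on so few counts that 2 of its 3 libraries lay at or below the level of 3 counts. Of the genes that flank it, WLS, which carries Wnt proteins to the cell surface, fell from 8.16 ± 1.46 to 4.72 ± 0.25 CPM (SD, n = 3), with a log2 fold change of -0.77 (edgeR, adjusted p = 1.66e-04). GNG12 and GADD45A on the other side were not called.

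DLK1, a membrane protein with EGF-like repeats that is related to the Notch ligands, lies at chr14:100725705-100738224 on the plus strand. Its level was 6.52, 6.79 and 6.35 CPM in PEG and HS against 12.9, 15.02 and 9.12 CPM in Control. The PEG and HS libraries were close together, and each lay below all Control libraries, which were widely spread. The log2 fold change was -0.91 ± 0.14 (SE), or 1.87-fold lower (edgeR, adjusted p = 1.80e-04). It was -0.73 without Control replicate 2 and -1.10 without Control replicate 3, and was called in each case. The fall was not shown to exceed 1.5-fold (adjusted p = 0.214 in edgeR's test against that change). The other protein-coding genes of its cluster were near the limit of counting. RTL1, a gene derived from a retrotransposon, was at 0.0616 to 0.248 CPM, and DIO3, the deiodinase that inactivates thyroid hormone, at 0 to 0.208 CPM. Neither was called, and the 4 flanking genes WDR25, BEGAIN, PPP2R5C and DYNC1H1 were not called either, with log2 fold changes of -0.06 to 0.00.

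CDKN1C encodes p57, an inhibitor of cyclin-dependent kinases, and is normally expressed from the maternal copy at chr11:2883213-2885775. Its level was 16.9, 17.4 and 19.9 CPM in PEG and HS against 25.9, 29.2 and 28.2 CPM in Control. The lowest Control library stood above the highest PEG and HS library. The log2 fold change was -0.62 ± 0.066 (SE), or 1.54-fold lower (edgeR, adjusted p = 4.85e-06). The estimate is close to the limit of 1.5-fold and fell inside it, at -0.57, without PEG and HS replicate 1. Its neighbours in the same imprinted domain were not called. SLC22A18, a membrane transporter, was at 2.75 ± 0.49 CPM in PEG and HS against 3.40 ± 0.16 CPM in Control (SD, n = 3). PHLDA2, which limits placental growth, was at 2.24 ± 0.22 and 2.31 ± 0.47 CPM (SD, n = 3). None of the 4 flanking genes TSSC4, TRPM5, NAP1L4 and CARS1 was called. Of these 7 genes, CDKN1C alone passed the threshold. The flanking genes leave out those of a further list of imprinted genes, given at the end. Of that list OSBPL5, beyond CARS1, was called lower (log2 fold change -0.38, edgeR, adjusted p = 0.00313). KCNQ1, ASCL2, INS and IGF2, on the other side of CDKN1C, were not called.

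**Figure D2:**
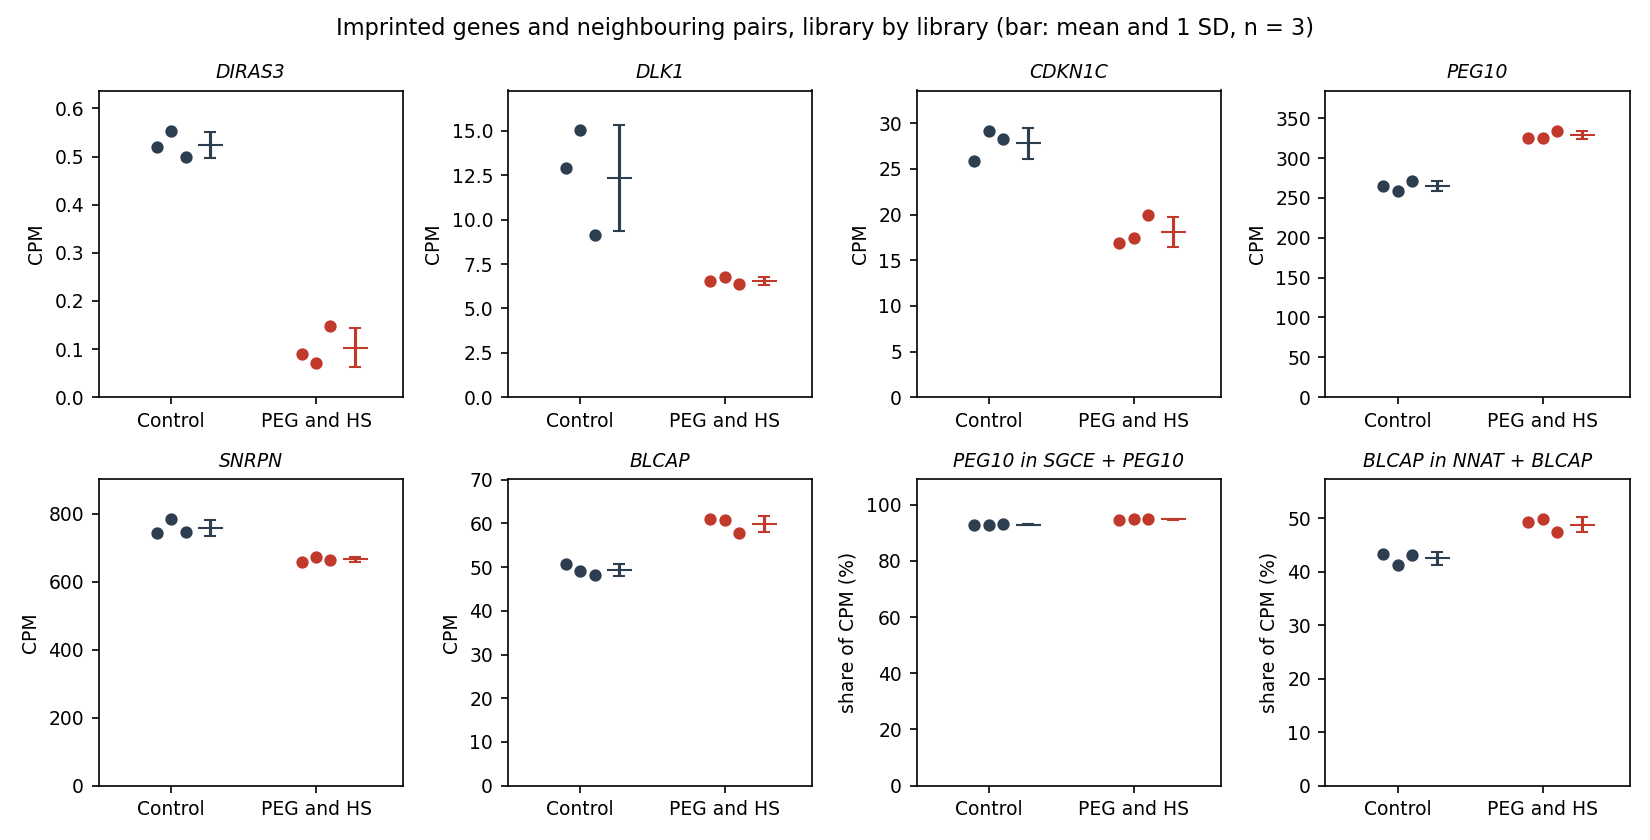
Level in CPM of 6 imprinted genes, and in percent the share of PEG10 in the sum of SGCE and PEG10 and of BLCAP in the sum of NNAT and BLCAP. Each point is a library, with the mean and 1 SD (n = 3) beside it and axes that start at 0. The 6 genes were picked from the called members and the 2 shares follow from such genes, so the lack of overlap in the panels is no separate result. Over the 31 members tested, libraries did not overlap for 14 (45.2%), beside 39.3% of all genes.

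PEG10 rose by the most of the called genes. It encodes Gag- and Pol-like proteins of retrotransposon origin, is needed for the placenta and lies at chr7:94656325-94669695 on the plus strand. Its level was 328.6 ± 5.16 CPM in PEG and HS against 264.8 ± 6.07 CPM in Control (SD, n = 3), a log2 fold change of 0.31 ± 0.027 (SE; edgeR, adjusted p = 5.53e-07). SGCE, the epsilon-sarcoglycan gene, is transcribed in the opposite direction from the same start region and is also a paternal gene. It went the other way, from 20.5 ± 0.66 CPM in Control to 18.2 ± 0.60 CPM in PEG and HS (SD, n = 3), a log2 fold change of -0.17 ± 0.055 (SE; edgeR, adjusted p = 0.0336). The SGCE call was weak. It was lost under DESeq2 (adjusted p = 0.101) and without each library in turn other than Control replicate 2, with adjusted p up to 0.109. PEG10 made up 94.6% to 94.9% of the summed level of the pair in PEG and HS and 92.6% to 93.0% in Control. Every PEG and HS library was higher for PEG10 and lower for SGCE, so the shares had to be apart and add no evidence. The exact two-sided permutation test gave p = 0.1, the smallest that 3 against 3 libraries allow. In the same cluster the maternal genes TFPI2, a protease inhibitor, and PPP1R9A, an actin-binding neurabin, were not called. TFPI2 was at 2.47 ± 0.35 CPM with the additives and 1.99 ± 0.29 CPM without, and PPP1R9A at 33.5 ± 0.74 and 32.5 ± 2.63 CPM (SD, n = 3). The flanking genes VPS50, GNGT1, PON1 and PON3 were not called.

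The imprinted region of chromosome 15, lost in Prader-Willi and Angelman syndromes, held the most abundant paternal gene. SNRPN, a protein of the splicing machinery that is abundant in brain, lies at chr15:24823637-24978723 on the plus strand. Its level was 659.4, 673.7 and 664.3 CPM in PEG and HS against 743.4, 785.0 and 748.1 CPM in Control. The groups did not overlap, and the fall was small beside the level, with a log2 fold change of -0.19 ± 0.027 (SE), or 12.3% (edgeR, adjusted p = 8.46e-05). SNURF is read from the same transcript as SNRPN, shares 48.7% of its 31-base words with other genes and was at 7.01 ± 1.64 and 8.11 ± 1.40 CPM (SD, n = 3). Since the counting could split reads between them, the sum was also taken. It was 672.8 ± 6.78 CPM in PEG and HS against 766.9 ± 22.2 CPM in Control (SD, n = 3), a log2 ratio of -0.19. A further protein-coding gene at the same place, listed as ENSG00000214265 with no symbol, was called lower, with a log2 fold change of -0.24 ± 0.068 (SE; edgeR, adjusted p = 0.0180).

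The other genes of the region did not follow SNRPN. NDN and MAGEL2, paternal genes of the MAGE family, were at 30.99 ± 1.71 against 28.3 ± 1.21 CPM and at 7.73 ± 0.69 against 6.64 ± 0.13 CPM (SD, n = 3). Each had all PEG and HS libraries above all Control libraries, but neither was called (edgeR, adjusted p = 0.0824 and 0.0802). MKRN3, linked to the timing of puberty, had 3 counts over all 6 libraries. The maternal genes were not called, with UBE3A, the ubiquitin ligase of Angelman syndrome that is imprinted in neurons, at 112.2 ± 2.50 and 108.7 ± 3.24 CPM. ATP10A, a lipid flippase, was at 1.99 ± 0.42 and 1.84 ± 0.51 CPM (SD, n = 3).

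NNAT, a small membrane protein of the developing brain, lies within an intron of BLCAP and on the opposite strand. BLCAP rose from 49.3 ± 1.35 CPM in Control to 59.9 ± 1.80 CPM in PEG and HS (SD, n = 3), a log2 fold change of 0.28 ± 0.038 (SE; edgeR, adjusted p = 5.28e-05). NNAT was at 62.8 ± 1.54 CPM in PEG and HS against 66.7 ± 3.44 CPM in Control, with overlapping libraries, and was not called (log2 fold change -0.08, edgeR, adjusted p = 0.150). BLCAP made up 47.3% to 49.8% of the sum of both in PEG and HS and 41.2% to 43.2% in Control (exact two-sided permutation test, p = 0.1). The ranges of the 2 genes already set these shares apart, so they add no evidence. That p-value is the smallest that 3 against 3 libraries allow. MEST, a hydrolase-like gene of mesoderm, and COPG2, a coatomer subunit, overlap at their ends on opposite strands, and neither was called. MEST was at 173.1 ± 2.49 and 175.4 ± 5.96 CPM and COPG2 at 89.6 ± 2.11 and 91.6 ± 3.05 CPM (SD, n = 3). Of the 4 genes flanking MEST, 3 were tested and all 3 were called, beside 25.9% of all flanking genes tested and 25.3% of all genes. CEP41 and MKLN1 were higher and PODXL lower (log2 fold changes of 0.40, 0.20 and -0.41), none by 1.5-fold or more. They were named here after their values were seen. PODXL, a surface sialomucin used as a marker of pluripotent cells, was at 1403 ± 17.4 CPM in PEG and HS against 1868 ± 16.8 CPM in Control (SD, n = 3). The kit marks strand, but the strand setting of the counting was not given in the sources used here, so reads of these overlapping pairs may not be fully apart.

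**Figure D3:**
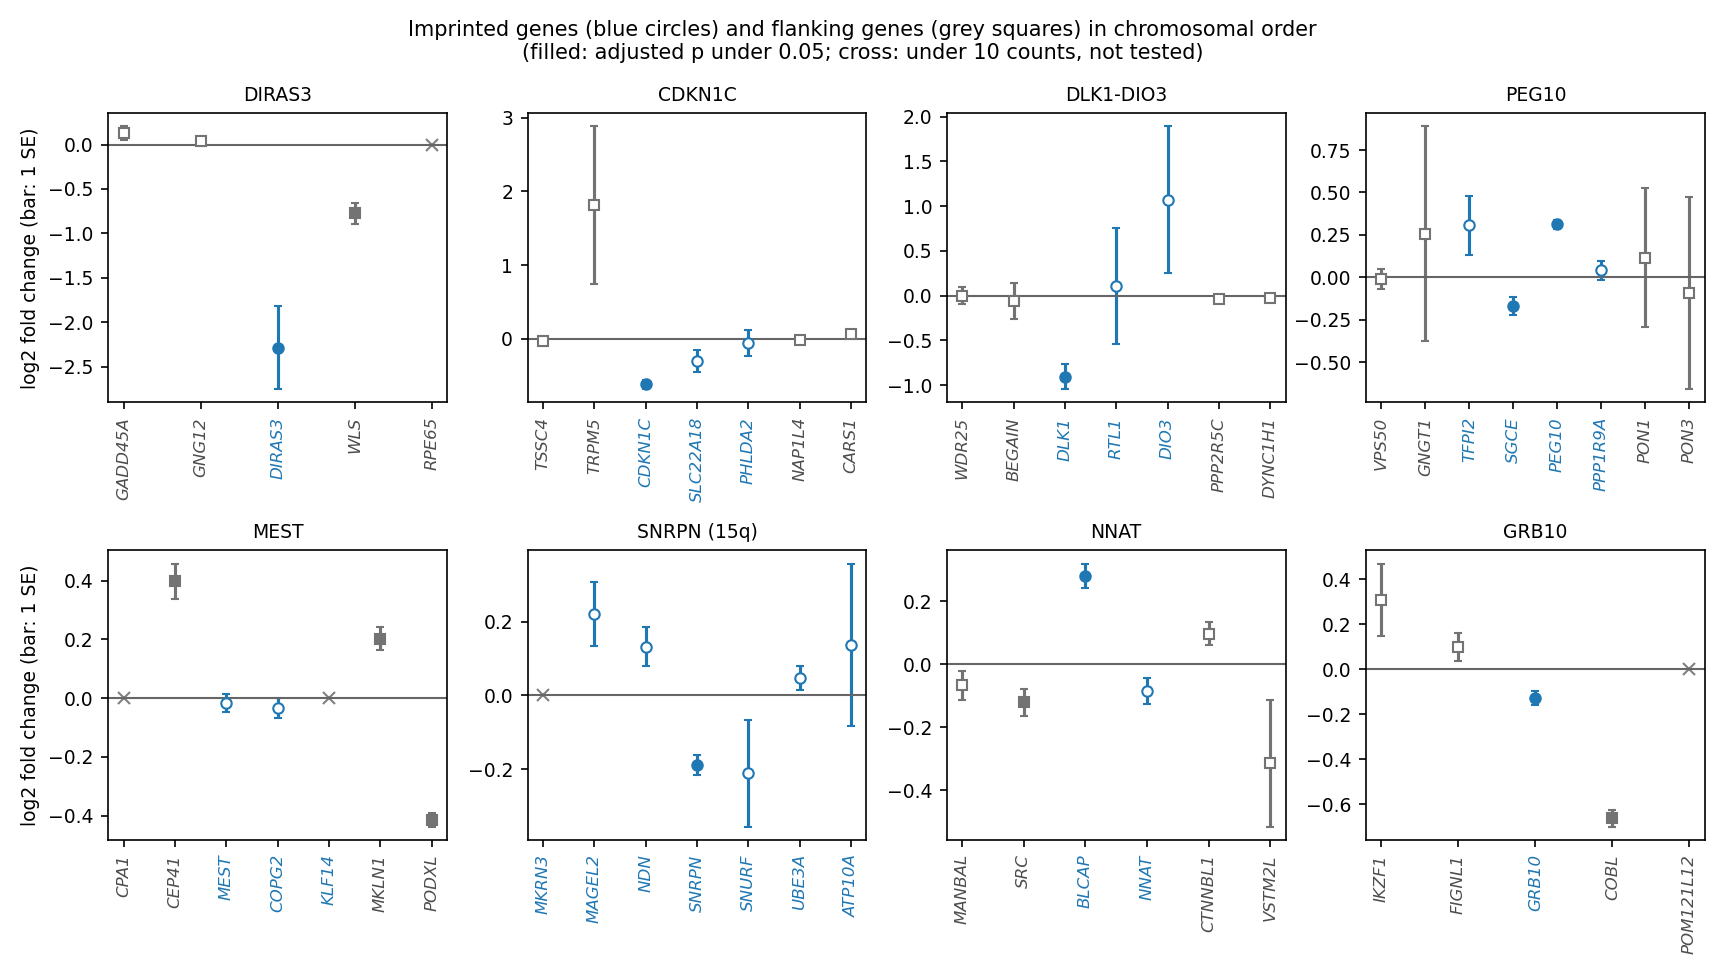
Log2 fold change of PEG and HS over Control (y axis, bars of 1 SE, scale set for each panel) for imprinted genes (blue circles) and the nearest genes on each side (grey squares), in chromosomal order, with imprinted genes alone in the SNRPN panel. Filled symbols were called at an adjusted p under 0.05 and crosses mark genes under 10 counts. Flanking genes leave out those listed as imprinted. DLK1, CDKN1C and PEG10 were called without their flanking genes. WLS fell beside DIRAS3, COBL beside GRB10 and SRC beside NNAT, and flanking genes of MEST were called although MEST was not. Most flanking genes were not called, since 25.9% of those tested were, near the 25.3% of all genes.

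The 5 genes with transcript or tissue dependent imprinting were well counted, and 4 of them (80%) were called, beside 25.3% of all genes. These shares are not alike, since all genes include those with few counts. The 5 lay at percentiles 71.9 to 99.6 of Control CPM among the genes tested, where small changes can be called. Counts per gene also joined the transcripts of each. BLCAP, described above, rose by a log2 fold change of 0.28, and the 3 called lower moved little. GNAS, the stimulatory G protein alpha subunit and the most counted member, was at 1072, 1081 and 1057 CPM in PEG and HS against 1157, 1151 and 1113 CPM in Control. Its libraries did not overlap, although the gap between the nearest ones was narrow, and the log2 fold change was -0.09 ± 0.025 (SE; edgeR, adjusted p = 0.0128). GRB10, an adaptor that dampens insulin receptor signalling, was at 112.2 ± 2.06 and 122.5 ± 3.57 CPM (SD, n = 3), with a log2 fold change of -0.13 (edgeR, adjusted p = 0.00779). Its neighbour COBL, an actin nucleator, fell more, from 91.1 ± 3.97 to 57.6 ± 1.42 CPM (SD, n = 3; log2 fold change -0.66). INPP5F, an inositol phosphatase, was at 180.7 ± 2.57 and 191.4 ± 4.08 CPM (SD, n = 3), with a log2 fold change of -0.08 (edgeR, adjusted p = 0.0431). The calls of GNAS and INPP5F were lost when some libraries were left out, as given with the alternatives.

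NLRP2, a maternal gene of the NLR family expressed in oocytes and early embryos, was the most counted maternal gene. Its level was 160.9, 163.1 and 166.0 CPM in PEG and HS against 156.5, 153.8 and 150.6 CPM in Control. The groups did not overlap, but the log2 fold change was 0.09 ± 0.028 (SE; edgeR, adjusted p = 0.0320) and the call was lost under upper quartile normalization (adjusted p = 0.0610). Its neighbour NLRP7, mutated in recurrent hydatidiform mole, was at 0.836 ± 0.031 and 1.05 ± 0.30 CPM (SD, n = 3) and was not called. NLRP2 shares 12.2% of its 31-base words with other genes, mostly NLRP7, so a part of their reads could be exchanged.

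Of the remaining paternal genes with at least 10 counts, PLAGL1, NAP1L5, L3MBTL1 and ZDBF2, none was called. PLAGL1, a zinc finger gene of the growth-regulating network, was at 1.56 ± 0.24 and 1.78 ± 0.12 CPM, and NAP1L5, a nucleosome assembly protein homologue, at 3.33 ± 0.56 and 3.74 ± 0.48 CPM (SD, n = 3). L3MBTL1, a chromatin reader, was at 27.7 ± 3.51 and 26.3 ± 2.45 CPM, and ZDBF2, a zinc finger gene, at 25.8 ± 2.24 and 24.4 ± 0.48 CPM (SD, n = 3). The maternal ZNF597, another zinc finger gene, was at 5.72 ± 0.61 and 5.91 ± 0.38 CPM and was not called. For these genes a change smaller than their spread could not be seen.

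The PEG3 cluster was nearly without reads in both media. PEG3, a zinc finger gene named as a paternally expressed gene, had 3 counts over 6 libraries, all in PEG and HS replicate 2, ZIM2 had 0 and USP29, a deubiquitinase-like gene, had 1. KLF14, a maternal transcription factor gene, and MKRN3 had 3 counts each. A count of 0 allows 3 counts in a library, or 0.0829 to 0.111 CPM, and no medium could be compared for these 5 genes. Of the 31-base words of PEG3, 49.4% occur in other genes, and how the counting treats reads that fall on several genes was not given in the sources used here. The sum of PEG3 and ZIM2 was 0 to 0.106 CPM. This limit covers counting error only.

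**Figure D4:**
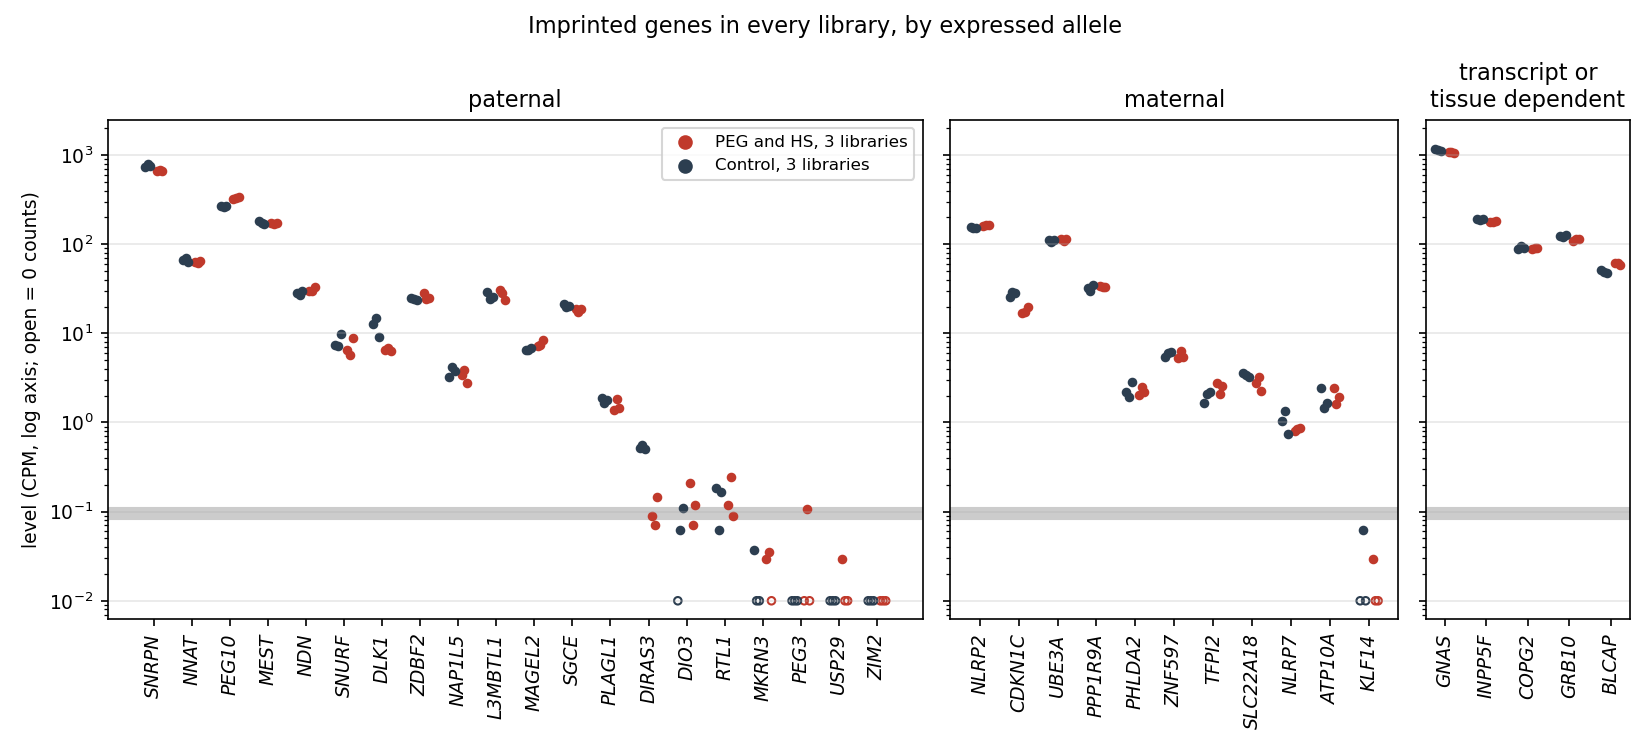
Level in CPM on a log axis of the 36 imprinted genes in each library, by expressed allele and ordered by level per length in Control. Open points on the lowest line are libraries with 0 counts, and the grey band is the level of 3 counts (0.0829 to 0.111 CPM). SNRPN and GNAS lead, and PEG3, USP29, ZIM2, MKRN3 and KLF14 sit at or under the band.

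Per length of exons, the levels in Control were led by SNRPN at 222.7 RPKM (the CPM divided by the exon length in kilobases). GNAS at 51.3, NNAT at 50.2, PEG10 at 39.6 and MEST at 36.8 RPKM followed. The length joined the exons of all annotated transcripts, 22221 bases for GNAS, 3408 for SNRPN and 1329 for NNAT. It is not that of the transcripts expressed, so the order depends on the annotation. By CPM alone GNAS stood above SNRPN in Control, at 1140 against 759 CPM. In PEG and HS the same 5 genes were at 195.4, 48.1, 47.2, 49.1 and 36.3 RPKM. By this measure PEG10 stood level with GNAS and NNAT rather than below them. In Control, GNAS and NNAT did not differ beyond their spread. Together the 36 genes held 3207 to 3221 CPM in PEG and HS against 3298 to 3353 CPM in Control. Without SNRPN and GNAS the order was turned, at 1466 to 1496 CPM in PEG and HS against 1417 to 1446 CPM in Control. This turn rested on PEG10, at 328.6 against 264.8 CPM, and was not a rise of the other members as a group. Of the 29 tested without SNRPN and GNAS, 3 were called higher and 6 lower, with a median log2 fold change of -0.03. The sums therefore followed a few well counted genes.

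Genes that set or keep imprints were measured as a list of 23, of which 20 were tested. Here 3 were higher and 2 were lower, or 25.0% of those tested, near the 25.3% of all genes, and none changed by 1.5-fold or more. The median log2 fold change was 0.00. ZFP57, the zinc finger protein that binds methylated control regions, was at 0.443 CPM with the additives and 0.452 CPM in Control, and ZNF445, a zinc finger protein of the same kind, at 65.9 and 67.6 CPM. TRIM28, the corepressor they recruit, was at 1039 and 1010 CPM, and DNMT1, the maintenance methyltransferase, at 301.7 and 296.2 CPM. None of these 4 was called. The 5 called genes, named after their values were seen, were DNMT3A, TET1 and ZNF202 (higher, log2 fold changes of 0.17, 0.16 and 0.17) and TET2 and TET3 (lower, -0.48 and -0.11). DNMT3A sets new methylation and the TET enzymes oxidise it.

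The genes nearest to the clusters, leaving out those listed as imprinted, gave a local background, with 4 for each of the 17 clusters. Of the 68, 54 were tested, 9 were higher and 5 were lower, or 25.9%, near the share of all genes. Their median log2 fold change was 0.01. WLS and COBL were the 2 that changed by 1.5-fold or more.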

How the data were processed

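Polyadenylated RNA of 3 PEG and HS and 3 Control libraries was sequenced from stranded libraries. Per the labels and the methods, the authors trimmed reads with Trim Galore 0.6.7, mapped them to GRCh38 with STAR 2.6.1 and deposited raw counts per gene. The counting tool, its strand setting and the annotation release were not given in the sources used here. Of 19977 Ensembl IDs, 19916 matched GENCODE 44, which gave symbols, coordinates and exon lengths.

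Counts were compared with edgeR 4.0.16 (R 4.3.3; TMM, glmQLFit and glmQLFTest, genes with at least 10 counts over 6 libraries, Benjamini-Hochberg over all genes tested). The study used DESeq2, which was run here (1.42.0) as an alternative, with limma 3.58.1 (voom). The SE was taken as the size of the log2 fold change over the root of its F statistic. CPM used TMM-adjusted library sizes. The coefficient of variation that edgeR names biological was 3.12% and the depth 26991279 to 36185138 counts. Small differences between the libraries were therefore resolved in well counted genes and not in genes with few counts. With 1 bioreactor for each medium, as the labels read, this spread may be technical and may leave out differences between vessels. The script was tested on simulated data.

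The members and lists were chosen with earlier results of these data known. All 36 members were named. Values in every library were given for members called with at least a 1.5-fold change and for the most counted member of each allele group. Of the other lists and flanking genes, those called with at least a 1.5-fold change and ZFP57, ZNF445, TRIM28 and DNMT1 were named, and others were chosen after their values were seen. No sample was left out. Some flanking genes are not reported here. Same-numbered libraries did not deviate together, with correlations of 0.018, 0.0049 and 0.030 over 12701 genes.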

Additional observations from a re-analysis of the deposited data

How the results depend on the processing

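The alternatives were other tests, normalizations and filters, the sum of overlapping genes, a test against a 1.5-fold change and each library left out in turn. No called member changed direction under any of the 17 settings. Tested against a 1.5-fold change, 264 genes were called in place of 4173, with 0 imprinted genes higher and 1 lower (DIRAS3), so 1 past that fold. With each library left out, 3114 to 3674 genes were called, with 2 to 3 imprinted genes higher, 5 to 8 lower, 2 to 3 past 1.5-fold and a median log2 fold change from -0.0795 to -0.0252. The lowest count of 5 came without Control replicate 1, where SGCE, GNAS (adjusted p = 0.0549) and INPP5F were lost. INPP5F was also lost with library size alone (adjusted p = 0.0662) and without PEG and HS replicate 1, PEG and HS replicate 2 and Control replicate 3, and NLRP2 without PEG and HS replicates 2 and 3 and Control replicates 2 and 3. DIRAS3 could not be tested with at least 1 CPM in 3 libraries and had no adjusted p under DESeq2, so 2 genes past 1.5-fold were left there. SNURF was called without PEG and HS replicate 3 (adjusted p = 0.0304) and NNAT without Control replicate 3 (adjusted p = 0.0423). With the replicate number as a block, which the design does not give as a pairing, 4444 genes were called, with 4 imprinted genes higher (NDN joined, adjusted p = 0.0443) and 8 lower.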

Other observations

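A further list of 27 genes reported as imprinted, 25 of them tested, was not part of the 36. In PEG and HS 1 was higher and 6 were lower, or 28.0%, beside 25.3% of all genes, and the median log2 fold change was -0.08. LRRTM1, a synaptic membrane protein, fell from 0.499 to 0.175 CPM (log2 fold change -1.48, edgeR, adjusted p = 0.0205), and GLIS3, a zinc finger factor of pancreas and kidney, from 0.825 to 0.448 CPM (-0.88, adjusted p = 0.0470). Both were low in every library. The others, named after their values were seen, were ZNF331 (higher, 0.20) and OSBPL5, SLC22A3, ANO1 and PHACTR2 (lower, -0.38, -0.56, -0.28 and -0.44). PHACTR2, a regulator of actin and phosphatase 1, was the best counted of those that fell, at 40.8 and 55.2 CPM. IGF2, the fetal growth factor, was at 5.93 and 6.67 CPM and was not called. The count called lower fell to 2 under DESeq2 and ranged from 2 to 5 with each library left out.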
